A study of Mus musculus with 6 samples.

Results

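Blockade of integrin αvβ8 with the antibody ADWA11 was set against deletion of Tgfbr2 from fibroblasts at 21 days post injury (dpi), using the 2 single-nucleus RNA-seq libraries that hold these conditions. The comparison asked what blockade of TGFβ activation by αvβ8 in a brain lesion showed beyond loss of the TGFβ receptor in fibroblasts. Nuclei were taken when they held at least 1000 unique molecular identifiers (UMIs, each standing for a captured RNA molecule) and under 5% mitochondrial UMIs. This left 12656 of 13519 barcodes in the ADWA11 library and 6328 of 7205 in the Tgfbr2-cKO library, together 18984 of the 60729 nuclei that passed in the 6 libraries of the study.

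All mice carried a photothrombotic (PT) cortical lesion, made by light-induced clotting of vessels. The study's methods name the lesion alone as the dissected tissue, while its results section also names remaining brain tissue around it, which bears on the neural classes. ADWA11 mice were wild type (WT) and received the antibody at 10 mg/kg intraperitoneally on the day of injury and weekly after that. Tgfbr2-cKO mice had the genotype Col1a2(creER); Tgfbr2(flox), in which tamoxifen turns on a Cre recombinase driven by the promoter of a collagen gene, and they had no other listed treatment. Ctrl mice were WT with no listed treatment and are given as the level in an untreated lesion at the same time. Each library pooled the tissue of 1 male and 1 female mouse aged 7 to 21 weeks. The study's methods describe tamoxifen-treated controls and an isotype control antibody in general terms, but whether the mice of these ADWA11 and Ctrl libraries received either is not given in the sources used here. The Cre acts in any cell that uses the Col1a2 promoter, and the share of fibroblasts that lost the receptor was not measured here.

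TGFβ is secreted as a latent complex and has to be released before it can bind its receptor. Integrin αvβ8 releases it on cell surfaces, and microglia and T cells are among the cells known to depend on this route. The receptor is made of a type II chain, encoded by Tgfbr2, and a type I chain, encoded by Tgfbr1, which together drive SMAD transcription factors. In fibroblasts the signal is known for collagen production, in microglia for their resting identity, in macrophages for restraint of antigen presentation, and in T cells for tissue residency and for the balance of regulatory and type 17 cells. An antibody to αvβ8 therefore acts on the ligand that this integrin releases, for any cell that would receive it. Deletion with a fibroblast Cre acts on the response of the fibroblasts themselves. The study considers it likely that other mechanisms of TGFβ activation contribute as well.

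With 1 library per condition there was no test between conditions. Levels are counts of UMIs per 1000000 UMIs (CPM), summed over all nuclei of a class, ratios are ADWA11 over Tgfbr2-cKO on the log2 scale, and values in square brackets are exact 95% intervals that cover counting error only. Counts of genes past 2-fold describe these libraries. The 2 mice of a library were told apart by X- and Y-linked transcripts. Nuclei with both kinds (1287 under ADWA11 and 694 in Tgfbr2-cKO before doublet removal) or with neither (861 and 476) are left out of these values. Values for female and male nuclei stand for 1 mouse each only as far as these calls are right. The rate of wrong calls was not measured, and sex and mouse cannot be told apart.

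The libraries held 84164716 UMIs (ADWA11), 66884963 (Tgfbr2-cKO) and 83026693 (Ctrl), with a median of 5221 to 6537 UMIs per kept nucleus, and ADWA11 and Tgfbr2-cKO shared 27 barcodes. After removal of called doublets, 11287, 5963 and 10694 nuclei remained. The dissected tissue differed in its neural content. The Tgfbr2-cKO library held 831 neurons and 600 oligodendrocytes, the ADWA11 library 1 nucleus of each, and Ctrl 153 and 105. Markers of these cells also appeared at low level in other classes. The summed level of 7 neuron markers in fibroblasts was 2.36 CPM under ADWA11 with Gad2 at 0, 69.5 CPM in Tgfbr2-cKO and 7.61 CPM in Ctrl, and in myeloid nuclei it was 3.44, 91.3 and 9.92 CPM. Fibroblast markers in myeloid nuclei went the other way, at 454, 56.7 and 880.1 CPM. Tissue content and condition cannot be told apart here, so shares are given over all nuclei and again without neural classes.

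Stromal and immune nuclei made up most of the ADWA11 lesion. Fibroblasts, recognised by collagen genes, Pdgfra, Dcn and Lum, were 24.2% of nuclei (23.42 to 25.01) under ADWA11, 8.64% (7.94 to 9.38) in Tgfbr2-cKO and 30.2% in Ctrl, a share 2.80-fold higher under ADWA11 than in Tgfbr2-cKO. The log2 share ratio, fibroblast, was 1.49 [1.35 to 1.62], 1.84 in female and 1.12 in male nuclei, and 0.78 [0.64 to 0.92] without neural classes. The fibroblast share was thus higher under ADWA11 in female and in male nuclei. This class leaves out clusters 7 (led by Bglap) and 10 (led by Trpm3), which stayed unnamed. With both added, the log2 share ratio without neural classes was 0.33 [0.22 to 0.43], with 0.81 in female and -0.06 in male nuclei. A higher stromal share was therefore not seen in both mice on that denominator. T cells, which also include NK cells here, were 9.14% (8.62 to 9.69), 4.18% (3.68 to 4.72) and 2.46%, with a log2 share ratio of 1.13 [0.93 to 1.34]. Without neural classes the T cell ratio was 0.42, and it was -0.04 in female and 0.80 in male nuclei, so a higher T cell share under ADWA11 was not seen in both mice on that denominator.

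Myeloid nuclei (microglia, macrophages and other myeloid cells) were 52.7% (51.8 to 53.6) under ADWA11, 36.7% (35.5 to 38.0) in Tgfbr2-cKO and 28.0% in Ctrl. The class also includes small sub-clusters with B cell markers raised. The Pax5-led one held 31 nuclei under ADWA11 and 19 in Tgfbr2-cKO, and the one led by Pou2af1, Igha and Jchain 36 and 22. The log2 share ratio, myeloid, was 0.52 [0.45 to 0.59] over all nuclei and -0.19 [-0.26 to -0.11] without neural classes, so its direction depended on the denominator. The endothelial share turned in the same way, from 0.51 [0.20 to 0.83] to -0.20 [-0.51 to 0.13]. Astrocytes were 2.96% (2.65 to 3.29), 12.6% (11.8 to 13.5) and 9.15%, a log2 ratio of -2.09 [-2.28 to -1.91], with -1.19 in female and -3.005 in male nuclei. Oligodendrocyte precursors were 6 nuclei under ADWA11 and 123 in Tgfbr2-cKO. A cluster led by Bglap, Eln, Fap and Sp7 (cluster 7) raised 7 fibroblast and 5 osteoblast markers. Osteoblast genes stood among its leading genes, so it was left unnamed and is not in the fibroblast class. The cluster held 402 nuclei under ADWA11, 3 in Tgfbr2-cKO and 1487 in Ctrl. It was 3.56% of the ADWA11 library and 0.050% of the Tgfbr2-cKO library.

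**Figure D1:**
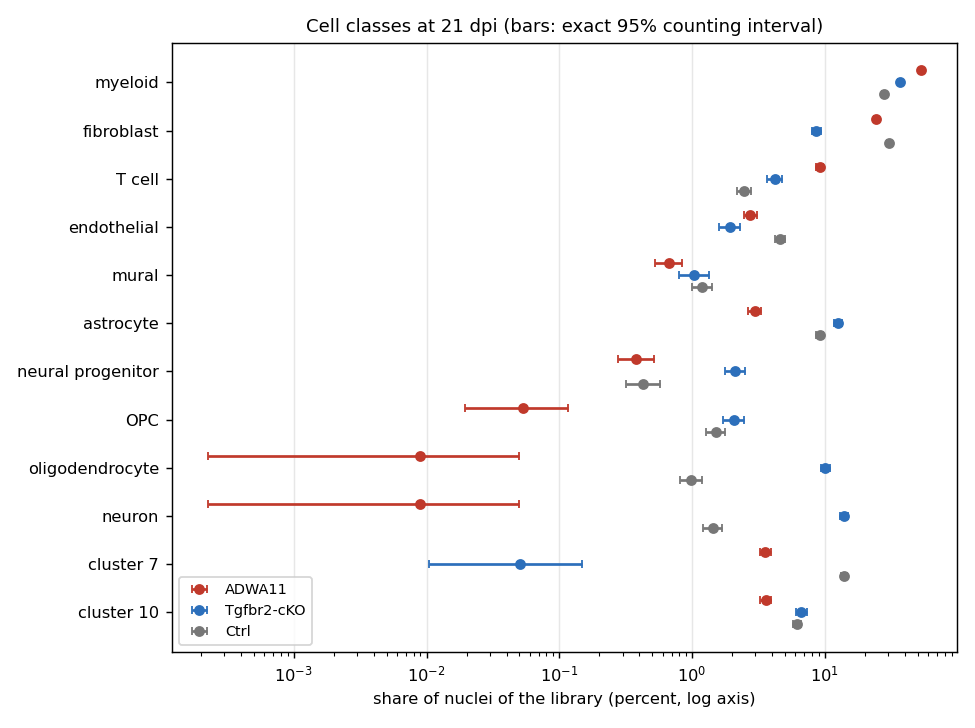
Share of classified nuclei (percent, log axis) for each of 12 classes at 21 dpi under ADWA11 (red), in Tgfbr2-cKO (blue) and in Ctrl (grey), 1 library each. Points are shares and bars are exact 95% intervals for counting error. Fibroblasts lie at 24.2%, 8.64% and 30.2%, and neurons and oligodendrocytes at 1 nucleus each under ADWA11 against 13.9% and 10.1% in Tgfbr2-cKO.

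The targeted gene was examined first. Tgfbr2 in fibroblasts stood at 198 CPM under ADWA11, 194 CPM in Tgfbr2-cKO and 229 CPM in Ctrl, a log2 ratio of 0.04 [-0.07 to 0.14], and at 217 against 212 CPM in female and 185 against 182 CPM in male nuclei. These counts are totals per gene that do not separate exons, while the floxed alleles used in the study remove an internal exon. The level therefore neither shows nor contradicts the deletion. In myeloid nuclei, which the Cre is not meant to reach, Tgfbr2 stood at 414, 377 and 358 CPM.

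Genes that TGFβ receptor signalling is known to induce directly were lower under ADWA11 in myeloid nuclei, where 7 of 12 were past 2-fold lower. In T cells 3 of 9 were past 2-fold lower, and in fibroblasts 0 of 12. The difference between classes was not tested. The list held 12 genes of this core response, among them the SMAD feedback inhibitors Smad7, Skil, Ski, Pmepa1 and Ldlrad4. In myeloid nuclei all 12 could be measured, 7 were past 2-fold lower and 0 past 2-fold higher, with a median log2 ratio of -1.21 (female -0.92, male -1.45). Over all 14314 genes with at least 50 UMIs in myeloid nuclei the median was -0.09, 10.3% were past 2-fold lower and 7.34% past 2-fold higher. The summed level of the list was 1228 CPM under ADWA11, 2557 CPM in Tgfbr2-cKO and 2643 CPM in Ctrl, so the Tgfbr2-cKO and untreated lesions lay close together and the ADWA11 lesion below both.

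Pmepa1, a membrane protein that traps SMADs, gave one of the widest gaps of the list. In myeloid nuclei it stood at 8.94 CPM under ADWA11, 139.8 CPM in Tgfbr2-cKO and 167 CPM in Ctrl, a log2 ratio of -3.97 [-4.15 to -3.79]. Per mouse it stood at 10.7 and 8.26 CPM under ADWA11, 93.5 and 175 in Tgfbr2-cKO, and 154 and 176 CPM in Ctrl (female and male), so neither ADWA11 mouse came near any mouse of the other libraries. Pmepa1 lies at chr2:173224458-173276533 on the minus strand of GRCm38. Smad7, which blocks the type I receptor, stood at 9.72, 74.0 and 70.5 CPM, a log2 ratio of -2.93 [-3.12 to -2.74]. The SMAD corepressor gene Skil stood at 51.4, 153 and 185 CPM (-1.58), and Ski at 167, 369 and 367 CPM (-1.14). Spsb1, which limits the type II receptor, stood at 6.69, 95.5 and 70.0 CPM (-3.84).

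Genes of the pathway itself lay on both sides in myeloid nuclei. Of 22 genes for ligands, latent-TGFβ proteins, integrins and receptors, 19 could be measured, with 2 past 2-fold lower, 3 past 2-fold higher and a median of 0.13. The type I receptor gene Tgfbr1 stood at 395 CPM under ADWA11, 1027 CPM in Tgfbr2-cKO and 1201 CPM in Ctrl (-1.38). The integrin subunit gene Itgb5 stood at 255, 544 and 608 CPM (-1.09). Nrros, whose product holds latent TGFβ1 on myeloid cells, was higher under ADWA11 at 309, 147 and 210 CPM (1.07). The ligand gene Tgfb1 differed less, at 142, 116 and 129 CPM (0.29). Itgb8, the target of the antibody, was low in myeloid nuclei of all 3 libraries at 6.41, 6.31 and 6.47 CPM.

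In T cells 9 of the 12 core genes could be measured, 3 were past 2-fold lower and 0 higher, with a median of -0.51 (female -0.23, male -0.65). Over 8769 genes the median was 0.11, with 10.3% past 2-fold lower and 6.83% past 2-fold higher. Pmepa1 stood at 22.4, 107 and 142 CPM in T cells, a log2 ratio of -2.26 [-2.74 to -1.79], with -2.08 in female and -2.43 in male nuclei. Myeloid markers were present in the T cell class at a summed 498 CPM under ADWA11 and 4828 in Tgfbr2-cKO (8 markers, 0 of them at 0 in either library), and without the T cell sub-cluster led by macrophage genes the median of the core genes was -0.73.

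In fibroblasts all 12 core genes could be measured and 0 were past 2-fold in either direction, with a median of -0.21 (female -0.32, male -0.13) and summed levels of 1257, 1255 and 1642 CPM. Over 14305 genes in fibroblasts the median was 0.01, with 6.39% past 2-fold lower and 7.1% past 2-fold higher. Fibroblast Pmepa1 stood at 185, 138 and 239 CPM (0.42), Skil at 74.8, 43.0 and 98.0 CPM (0.80) and Smad7 at 50.5, 71.2 and 57.9 CPM (-0.50). Individual genes lay on both sides, 7 lower and 5 higher. In astrocytes 10 core genes gave a median of -0.06 (0.23 in female and 0.15 in male nuclei), against 4.76% past 2-fold lower and 4.89% past 2-fold higher over 11743 genes. In endothelial nuclei 11 core genes gave a median of -0.39, with 1 past 2-fold lower and 1 higher, against 4.11% and 6.51% over 6179 genes.

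**Figure D2:**
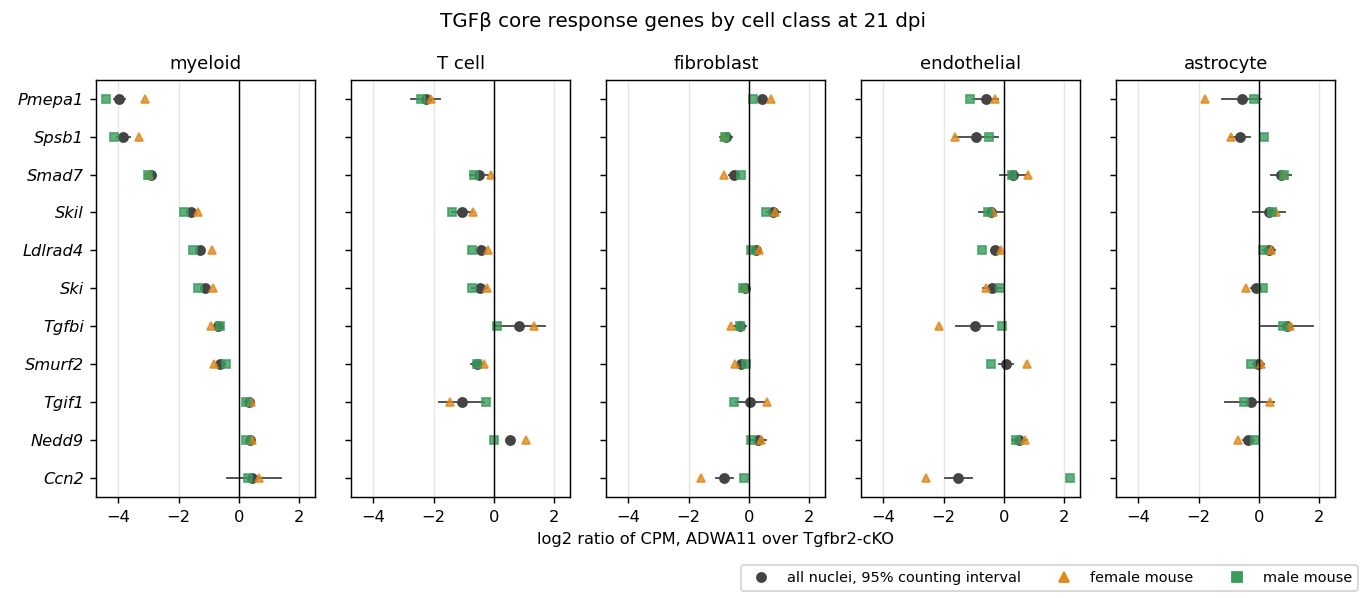
Log2 ratio of CPM, ADWA11 over Tgfbr2-cKO at 21 dpi, for 11 of the 12 core TGFβ response genes in 5 classes. Circles with bars are all nuclei with 95% counting intervals, triangles the female mice and squares the male mice. In the myeloid panel Pmepa1 lies at -3.97 and Smad7 at -2.93, while in fibroblasts no circle passes 1 in size.

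Myeloid nuclei fell into different states in the 2 lesions. Sub-clusters were formed without the genes of the lists described here. The sub-cluster led by Clec10a, Vcam1 and Ccl8 held 64.7% of myeloid nuclei under ADWA11, 8.04% in Tgfbr2-cKO and 24.0% in Ctrl, a log2 ratio of 3.01 [2.79 to 3.24]. It held 60.5% and 67.6% of the female and male nuclei under ADWA11 against 3.50% and 13.3% in Tgfbr2-cKO. Nuclei led by the iron exporter gene Slc40a1 and by Hpgd followed the same order, with 1026 nuclei under ADWA11 and 31 in Tgfbr2-cKO (17.3%, 1.42% and 5.65% in Ctrl). These 2 sub-clusters together held most of the ADWA11 myeloid nuclei.

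Most Tgfbr2-cKO myeloid nuclei lay elsewhere. The sub-cluster led by Apoc4, Apoc1 and Chst2 held 1018 nuclei in Tgfbr2-cKO and 61 under ADWA11 (46.5% against 1.03%, with 28.9% in Ctrl), a log2 ratio of -5.50 [-5.90 to -5.13]. Another, led by Sall1, a transcription factor gene of microglia, and Siglech, held 346 and 7 nuclei (15.8% against 0.12%, with 10.99% in Ctrl), a log2 ratio of -7.07 [-8.39 to -6.01]. It took 5.40% of the female and 25.6% of the male myeloid nuclei in Tgfbr2-cKO, and 0.31% and 0.026% under ADWA11, so the mice of each library differed while both ADWA11 mice lay below both Tgfbr2-cKO mice. A sub-cluster led by Fkbp5, Ms4a4a and Zbtb16 held 359 nuclei in Tgfbr2-cKO, 0 under ADWA11 and 3 in Ctrl, so 97.8% of it came from the Tgfbr2-cKO library and it may be that library rather than a cell state. It took 27.4% of the female and 4.85% of the male myeloid nuclei of that library, so most of it came from 1 mouse. Dendritic cells led by Clec9a and Xcr1 were 1.16% under ADWA11 and 0.37% in Tgfbr2-cKO, and a sub-cluster led by Ccr7 was 5.31% and 1.74%.

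The Sall1-led and Apoc4-led sub-clusters were also set against astrocytes, a neural cell found in all 3 libraries. All 5 microglia markers were raised in the Sall1-led sub-cluster, and so were 5 neuron markers (Rbfox3, Snap25, Syt1, Slc17a7 and Grin1) and 2 astrocyte markers (Slc1a2 and Slc1a3). Their part in its share, which was higher in the library with more neurons, was not tested. The Apoc4-led sub-cluster raised 2 of the 5 microglia markers, Sall1 and Tmem119, and 3 astrocyte markers, Gfap, Slc1a2 and Slc1a3, so it was left unnamed. Raised here means against the other myeloid nuclei, which for this sub-cluster include the Sall1-led ones. A marker not raised in that comparison may still be present. There were 20.4 such nuclei per 100 astrocytes under ADWA11 (15.5 to 26.5), 181 in Tgfbr2-cKO (166 to 198) and 122 in Ctrl (112 to 133). The intervals of the 3 libraries did not overlap, and the gap was narrower per astrocyte than as a share of myeloid nuclei. At 7 dpi the values were 69.4, 479 and 1078.

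**Figure D3:**
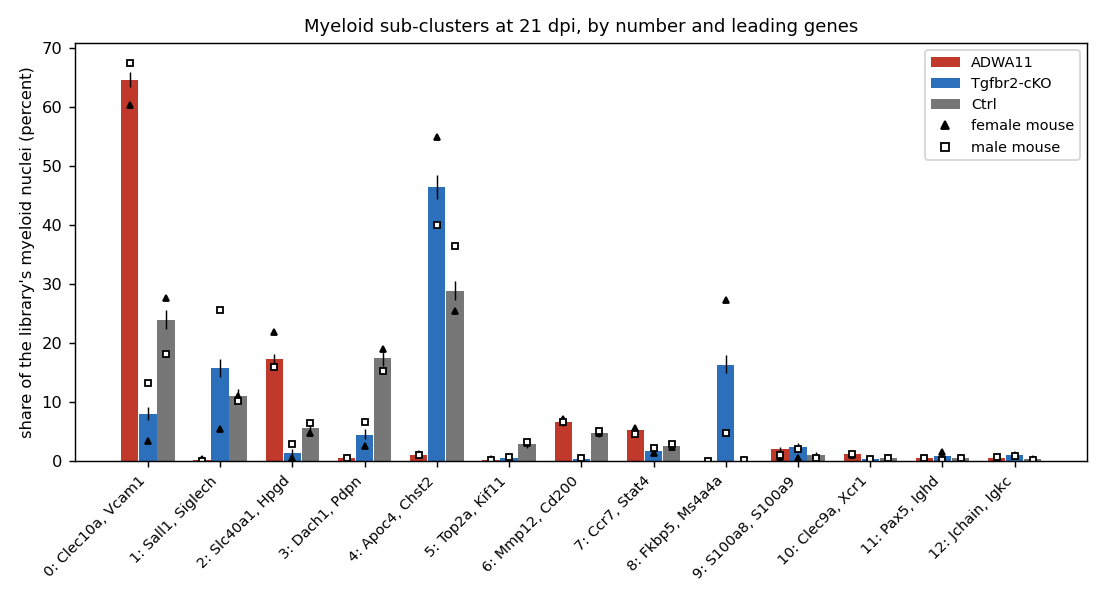
Share of each library's myeloid nuclei (percent) in each myeloid sub-cluster at 21 dpi, named by leading genes, under ADWA11 (red), in Tgfbr2-cKO (blue) and in Ctrl (grey). Bars carry exact 95% counting intervals, with triangles for female and open squares for male mice. The Clec10a-led sub-cluster takes 64.7%, 8.04% and 24.0%, and the Apoc4-led sub-cluster 1.03%, 46.5% and 28.9%.

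Homeostatic microglia genes were lower under ADWA11 across the class. Of 16 genes, 15 could be measured, 12 were past 2-fold lower and 0 past 2-fold higher, with a median of -2.43 (female -1.78, male -2.72). P2ry12, the purine receptor of resting microglia (chr3:59216272-59262871, minus strand), stood at 73.2 CPM under ADWA11, 292 CPM in Tgfbr2-cKO and 186 CPM in Ctrl (-1.999). Cx3cr1, the receptor for neuronal fractalkine, stood at 20.9, 266 and 209 CPM (-3.66). Tmem119, a microglial surface marker, stood at 1.28, 18.0 and 9.92 CPM (-3.81), and Sall1 at 5.22, 60.0 and 36.4 CPM (-3.52). The ADWA11 level was the lowest of the 3 libraries for each of these 4 genes. Fcrls stood at 26.8, 232 and 264 CPM (-3.12), with a ratio of -1.09 in female and -4.05 in male nuclei. Mertk, a phagocytic receptor gene of microglia and macrophages alike, did not follow the rest and stood at 2524, 2517 and 1858 CPM (0.00).

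Microglia and core genes were also compared within the 3 myeloid sub-clusters with enough nuclei in both libraries, and the core medians were smaller in size there than over the class. The sub-cluster led by S100a8, S100a9 and Hdc raised 6 neutrophil markers, so it does not stand for microglia or macrophages. Only 4 core genes and 4 microglia genes could be measured there. Its core median was 0.04 (female 0.76, male -0.19) and its microglia median -0.95 (female -1.62, male 0.95), so neither lay on the same side in both mice. Within the Clec10a-led sub-cluster 12 microglia genes could be measured, 7 were past 2-fold lower and 2 past 2-fold higher, with a median of -1.28, against 5.47% lower and 8.97% higher over 12075 genes. P2ry12 there stood at 83.8, 250.3 and 171 CPM (-1.58), and Cx3cr1 at 19.2, 250.3 and 84.0 CPM (-3.71). The core TGFβ genes in that sub-cluster had a median of -0.997, with 5 of 10 past 2-fold lower and 1 higher. Pmepa1 there stood at 7.96, 172 and 71.8 CPM, a log2 ratio of -4.43 [-4.75 to -4.12], as wide as over the whole class. In the Apoc4-led sub-cluster the core genes had a median of -0.89, with 5 of 11 past 2-fold lower and 1 higher. There, with only 61 nuclei under ADWA11, Pmepa1 had 5 UMIs against 684 (-3.13), Smad7 2 against 470 and P2ry12 1 against 1844. All genes there had a median of -0.37, with 27.5% past 2-fold lower and 9.88% higher over 9553 genes. The inflammatory cytokine genes of this sub-cluster summed to 3676 CPM under ADWA11, 198 in Tgfbr2-cKO and 196 in Ctrl (a median log2 ratio of 5.12), so its nuclei in the 2 libraries may not be alike.

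Genes of antigen presentation on MHC class II were higher under ADWA11 in myeloid nuclei. All 7 listed genes could be measured, 6 were past 2-fold higher and 0 lower, with a median of 3.09 (female 3.47, male 2.49). Their summed level was 1821 CPM under ADWA11, 232 CPM in Tgfbr2-cKO and 527 CPM in Ctrl. Ciita, the transactivator that switches on the class II genes (chr16:10480059-10528418, plus strand), stood at 235, 19.3 and 39.9 CPM, a log2 ratio of 3.60 [3.42 to 3.79]. H2-Ab1, which encodes a class II beta chain (chr17:34257689-34269419), stood at 261, 30.7 and 75.6 CPM, a log2 ratio of 3.09 [2.94 to 3.24]. Per mouse it stood at 233 and 254 CPM under ADWA11, 21.0 and 45.3 in Tgfbr2-cKO and 69.9 and 77.5 CPM in Ctrl (female and male), with no overlap between the libraries. The invariant chain gene Cd74 stood at 654, 85.4 and 215 CPM (2.94). H2-DMa, which encodes a chain of the peptide-loading molecule, had the smallest ratio of the list at 37.8, 24.4 and 27.1 CPM (0.64).

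Within the Clec10a-led sub-cluster the MHC class II median was 2.57 with 6 of 7 genes past 2-fold higher, and H2-Ab1 stood at 275, 40.7 and 73.2 CPM (2.76). The Tgfbr2-cKO level lay below Ctrl on this measure, both in the class and in the sub-cluster.

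The promoters of class II genes are known to carry an X box and a Y box at a fixed spacing, to which the machinery that CIITA joins binds. The windows below are shown because these genes were higher together. They were read from the RefSeq promoter table (GRCm38.p6, 250 bases before each gene start) and printed 5′ to 3′ on the strand of the gene, with capitals for the letters GNAACT and, 32 or 33 bases further on, ATTGG.
H2-DMb1, chr17:34153082-34153149, plus strand: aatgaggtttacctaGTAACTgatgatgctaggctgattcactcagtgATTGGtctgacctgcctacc
H2-Aa, chr17:34287852-34287919, minus strand: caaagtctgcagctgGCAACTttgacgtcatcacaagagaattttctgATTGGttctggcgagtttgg
H2-Eb1, chr17:34305761-34305827, plus strand: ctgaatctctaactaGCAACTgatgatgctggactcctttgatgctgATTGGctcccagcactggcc

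Of 32851 promoter windows of the table, 33.9% held ATTGG and 37.3% held GNAACT on either strand, and 198 windows (0.603%) held both letters 25 to 40 bases apart. Of 5 windows that matched the class II list, 3 held the pair. The letters and spacing were chosen with these promoters in view, a match is a description of sequence only, and H2-Ab1 and Ciita had no entry. In myeloid nuclei H2-Aa stood at 312, 31.1 and 85.9 CPM (3.33), H2-Eb1 at 262, 24.1 and 64.3 CPM (3.44) and H2-DMb1 at 60.1, 16.5 and 19.3 CPM (1.86).

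**Figure D4:**
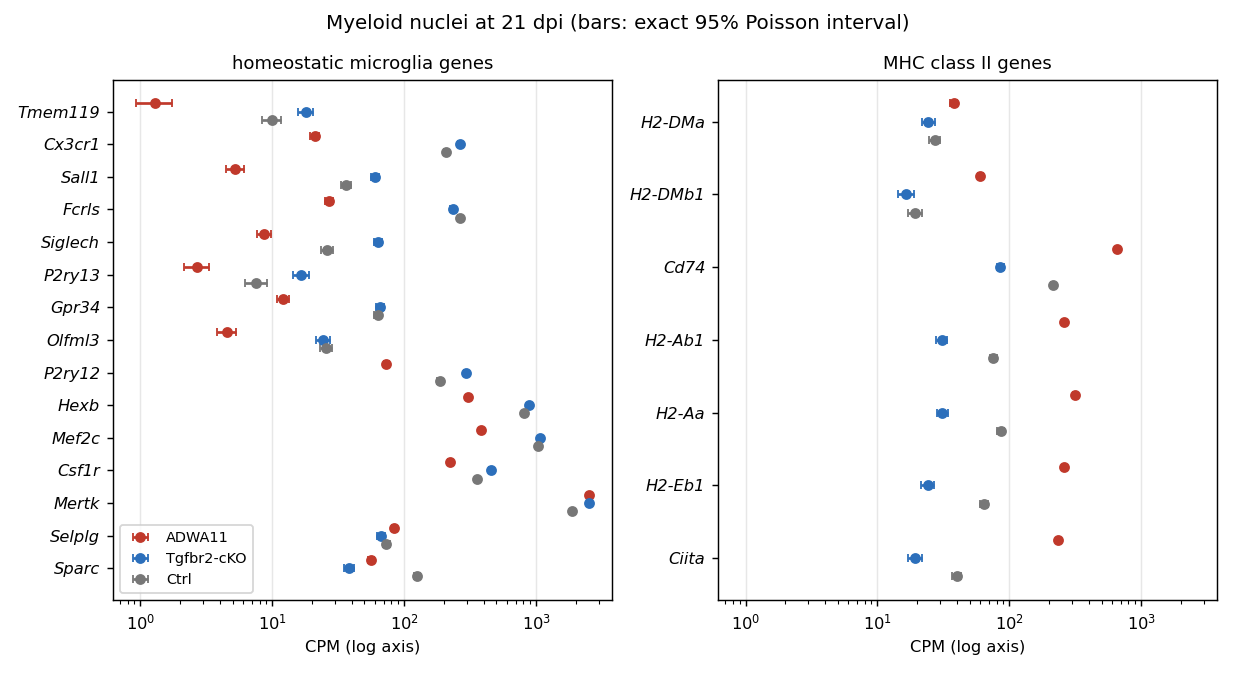
CPM (log axis) of homeostatic microglia genes and of MHC class II genes in myeloid nuclei at 21 dpi under ADWA11 (red), in Tgfbr2-cKO (blue) and in Ctrl (grey), with exact 95% Poisson intervals as bars. P2ry12 lies at 73.2, 292 and 186 CPM and Ciita at 235, 19.3 and 39.9 CPM, and the red point is the lowest of the 3 for all microglia genes except Mertk, Selplg and Sparc and the highest for all 7 class II genes.

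Genes induced by interferon gamma were partly higher under ADWA11. Of 17 genes 16 could be measured, 7 were past 2-fold higher and 0 lower, with a median of 0.88, and within the Clec10a-led sub-cluster the median was 0.48 with 3 past 2-fold higher. Within the Apoc4-led sub-cluster the median was negative, so the direction turned with the sub-cluster. Cxcl9, a chemokine gene for T cells, stood at 12.03, 1.29 and 1.87 CPM (3.22), and the GTPase gene Iigp1 at 153, 32.9 and 30.8 CPM (2.22). Cd274, which encodes PD-L1, stood at 159.5, 68.0 and 76.3 CPM (1.23).

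Genes of lipid handling were higher in part, with 5 of 12 past 2-fold higher, 0 lower and a median of 0.66. The fatty acid carrier gene Fabp4 stood at 311, 27.6 and 55.6 CPM (3.50) and the fatty acid receptor gene Cd36 at 484, 52.8 and 266 CPM (3.19). Lipa, which encodes the lysosomal acid lipase, stood at 504, 174 and 297 CPM (1.53). Within the Clec10a-led sub-cluster the median was 0.35 with 3 past 2-fold higher.

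Damage-associated microglia genes split. Of 14 measured, 5 were past 2-fold lower and 2 past 2-fold higher. Apoe, the main lipid carrier of the brain, stood at 1766, 4645 and 3728 CPM (-1.40), and Spp1, which encodes osteopontin, at 138, 581 and 671 CPM (-2.07). Lpl, lipoprotein lipase, was on the other side at 978, 209 and 553 CPM (2.23), as was the galectin gene Lgals3 at 1130, 355 and 601 CPM (1.67). Inflammatory cytokine genes differed between the mice. Il1b stood at 27.1, 35.9 and 12.2 CPM (-0.40), with a ratio of 3.12 in female and -1.61 in male nuclei. Of the 12 measured cytokine genes 2 were past 2-fold higher and 0 lower. Of 8 monocyte genes 2 were past 2-fold higher and 1 lower, with Ccr2, the receptor of blood monocytes, at 70.4, 20.6 and 30.6 CPM (1.77). Border macrophage genes and genes of the type I interferon response lay closer to the median of all genes, at 0.31 and -0.06, with 1 past 2-fold lower and 0 higher in each list. The border macrophage list turned within sub-clusters, to a median of -0.69 with 4 of 10 past 2-fold lower and 0 higher in the Clec10a-led nuclei, and to -1.16 in the Apoc4-led nuclei.

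Among genes taken by the ranking rule, the myeloid genes most clearly higher under ADWA11 included Tenm4 at 1114, 66.7 and 179.6 CPM (4.06), Slamf8 at 65.8, 4.21 and 10.1 CPM (3.97) and Stab2, a scavenger receptor for hyaluronan, at 149.8, 13.03 and 28.8 CPM (3.52). Those most clearly lower included Mlxipl, a transcription factor of sugar metabolism, at 0.2501, 33.3 and 27.1 CPM (-7.06), Chst1 at 0.406, 40.4 and 31.6 CPM (-6.63), and F11r, a junctional adhesion gene, at 2.34, 71.5 and 79.0 CPM (-4.93). For these 3 lower genes Tgfbr2-cKO and Ctrl lay close together. Fkbp5, a glucocorticoid-induced gene, was lower at 37.1, 883 and 131 CPM (-4.57), and here the Tgfbr2-cKO library stood above both of the others. Scaling by trimmed mean of M-values would add 0.14 to each myeloid log2 ratio.

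T cells differed in make-up and in genes that TGFβ is known to control in them. Regulatory T cells, which restrain immune responses, took a larger share under ADWA11. The sub-cluster led by Foxp3, Ikzf4 and Itgb8 held 225 nuclei under ADWA11 and 16 in Tgfbr2-cKO (21.8% and 6.43% of T cells, with 6.46% in Ctrl), a log2 ratio of 1.76 [1.03 to 2.59]. Nuclei led by Cd8b1 and Gzmk, with Cd8a raised, were 28.1%, 3.61% and 14.1% (2.96 [2.01 to 4.10]). Another sub-cluster with Cd8a raised, led by Xcl1, Hmgb2 and Gzmb, lay the other way at 2.81%, 14.5% and 11.8% (-2.36 [-3.12 to -1.62]). Nuclei led by Il23r, Blk and Cd163l1, genes of interleukin-17-producing gamma-delta T cells, were also a smaller share under ADWA11, with 14 nuclei against 52 (1.36% and 20.9%, with 14.5% in Ctrl) and a log2 ratio of -3.94 [-4.91 to -3.07]. A sub-cluster with the NK cell genes Ncr1 and Klrb1c raised took 16.5%, 4.02% and 6.46% (2.04 [1.12 to 3.12]). The sub-cluster led by St8sia1, Cd40lg and Itga1 took 15.8%, 32.9% and 29.3% (-1.06 [-1.45 to -0.66]), and Itga1 is also on the residency list.

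Gene lists over the whole class showed the same split for regulatory and type 17 genes. The part of the sub-cluster shares in these class-wide values was not tested. Of 6 measured regulatory T cell genes 4 were past 2-fold higher under ADWA11, with a median of 1.85 (female 1.70, male 2.16). Foxp3, the defining transcription factor, stood at 79.3 CPM under ADWA11, 9.37 CPM in Tgfbr2-cKO and 17.03 CPM in Ctrl, a log2 ratio of 3.08 [2.13 to 4.23]. Ikzf2, which encodes Helios, stood at 2003, 478 and 876 CPM (2.07), and Ctla4 at 164, 157 and 64.2 CPM (0.06). Itgb8, which regulatory T cells are known to use to release TGFβ and which is the target of the antibody, stood at 141, 17.7 and 21.0 CPM in T cells, a log2 ratio of 2.99 [2.29 to 3.79].

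All 6 measured type 17 and gamma-delta genes were past 2-fold lower under ADWA11, with a median of -2.52 (female -2.93, male -3.22). Il23r, the interleukin-23 receptor, stood at 71.2, 435 and 299 CPM (-2.61). Il17a had 0 UMIs under ADWA11 and 16 in Tgfbr2-cKO. Cd163l1, a scavenger receptor gene of these cells, stood at 71.2, 961 and 487 CPM (-3.76).

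Residency genes were lower in part, with 3 of 7 past 2-fold lower, 0 higher and a median of -0.81. Itgae, which encodes the CD103 integrin chain that TGFβ is known to induce, stood at 24.9, 307 and 94.3 CPM, a log2 ratio of -3.62 [-4.02 to -3.24]. Cxcr6 stood at 175, 364 and 429.6 CPM (-1.06). Klrg1, a receptor of effector T and NK cells, was higher under ADWA11 at 52.8, 3.12 and 6.55 CPM (4.08 [2.504 to 6.375], on 3 UMIs in Tgfbr2-cKO). The cytotoxic list differed between the mice, with a median of 0.71 over all nuclei, 1.499 in female and -0.15 in male nuclei. Of 9 measured proliferation genes 5 were past 2-fold higher, with a median of 1.46 and Top2a at 107, 31.2 and 55.0 CPM (1.77). The T cell class rested on 1032 nuclei under ADWA11 and 249 in Tgfbr2-cKO, and without the macrophage-led sub-cluster the regulatory median was 1.71 and the type 17 median -2.83.

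Fibrillar collagen transcripts in fibroblasts were in part higher under ADWA11 than in Tgfbr2-cKO, those of type I and type III collagen among them. Of 11 fibrillar collagen genes 10 could be measured, 4 were past 2-fold higher and 1 past 2-fold lower, with a median of 0.71 (female 1.24, male 0.45). The summed level was 5907 CPM under ADWA11, 2301 CPM in Tgfbr2-cKO and 6445 CPM in Ctrl. The ADWA11 and untreated lesions thus lay close together in this class, which leaves out clusters 7 and 10. Col1a1, a chain of type I collagen (chr11:94936224-94953042, plus strand), stood at 738, 191 and 877 CPM, a log2 ratio of 1.95 [1.85 to 2.05]. Col1a2, the other chain (chr6:4504814-4541544, plus strand) and the gene whose promoter drives the Cre, stood at 2247, 601 and 2496 CPM (1.90 [1.85 to 1.96]). Col3a1 stood at 1246, 554 and 1174 CPM (1.17). Col5a3, a minor type V chain, lay on the other side at 14.1, 50.5 and 19.2 CPM (-1.84).

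Stromal nuclei of the 2 lesions lay in different sub-clusters. Sub-clusters were formed over the fibroblasts and the neighbouring stromal clusters. The sub-cluster led by the transporter genes Slc47a1 and Slc47a2 and by Ccn3 held 2381 nuclei under ADWA11 (67.3% of stromal nuclei), 96 nuclei in Tgfbr2-cKO (7.91% of female and 13.9% of male stromal nuclei) and 1638 in Ctrl (30.5%), a log2 ratio of 2.68 [2.39 to 2.99]. Nuclei led by Ptgds, Slc6a20a and Trpm3 held 10.4%, 35.1% and 15.2% (-1.76 [-1.98 to -1.54]). A sub-cluster led by Ebf3 and Pparg held 296 nuclei in Tgfbr2-cKO, 9 under ADWA11 and 0 in Ctrl, and being nearly all from 1 library it may be that library rather than a cell state. It took 32.4% of Tgfbr2-cKO stromal nuclei, 30.6% of the female and 35.3% of the male ones. At 7 dpi it held 8 nuclei in Tgfbr2-cKO, 1 under ADWA11 and 0 in Ctrl. It also raised 4 neuron and 4 oligodendrocyte markers. A sub-cluster led by Caln1, Tnn and Runx3 held 268 nuclei under ADWA11 (7.58%), 0 in Tgfbr2-cKO and 462 in Ctrl (8.59%). It raised 4 osteoblast markers (Ibsp, Sp7, Runx2 and Alpl) and 2 fibroblast markers (Lum and Col6a3), and was left unnamed.

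The difference in type I collagen was also present within the Slc47a1-led and Ptgds-led sub-clusters. Summed fibroblast markers were also higher under ADWA11 than in Tgfbr2-cKO in myeloid and endothelial nuclei. The part of free RNA in the collagen values, over the class or within sub-clusters, was not tested. In the Slc47a1-led nuclei, Col1a1 stood at 696, 177 and 647 CPM (1.98 [1.75 to 2.21]), Col1a2 at 2241, 612 and 2296 CPM (1.87 [1.75 to 1.99]) and Col3a1 at 1249, 329 and 1098 CPM. The fibrillar list there had a median of 1.30 with 6 of 10 genes past 2-fold higher and 0 lower, against 4.46% lower and 10.7% higher over 13511 genes. In the Ptgds-led nuclei Col1a1 stood at 415, 83.9 and 542 CPM (2.31 [2.10 to 2.52]) and Col1a2 at 1094, 262 and 1427 CPM (2.06). Here 6 of 8 fibrillar genes were past 2-fold higher and 0 lower, with a median of 1.23, against 3.3% lower and 5.29% higher over 9599 genes. In both sub-clusters the Tgfbr2-cKO library was the lowest of the 3 for Col1a1 and Col1a2. It was less clear in the sub-cluster led by Dcdc2a, Col4a6 and Lama1, where the fibrillar median was 0.53 (female 0.9992, male -0.003066) with 2 of 8 past 2-fold higher and 1 lower, against 5.87% lower and 5.9% higher over 6016 genes. A sub-cluster led by Igha, Tnfrsf11a and Ikzf1, genes of immune cells and osteoclasts, had a fibrillar median of 3.20 with 6 of 7 past 2-fold higher and 0 lower, against 4.84% lower and 11.2% higher over 4439 genes. Its nuclei held a median of 1900 UMIs, against 5812 to 12208 in the other stromal sub-clusters. It raised 8 myeloid and 5 endothelial markers, and the part of free RNA in its values was not tested.

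Other genes that TGFβ is known to induce in fibroblasts split over the class. Of 14, 13 could be measured, 6 were past 2-fold higher and 2 past 2-fold lower under ADWA11, with a median of 0.37 (female 1.02, male 0.74). Itga11, a collagen-binding integrin chain, stood at 176, 41.4 and 168 CPM (2.09). Nox4, an oxidase gene of activated fibroblasts, stood at 192, 86.8 and 202 CPM (1.15), and Ltbp2, a matrix protein of the latent-TGFβ-binding family, at 184, 66.5 and 76.2 CPM (1.47). The matrix genes Tnc, at 20.2, 5.83 and 104 CPM (1.80), and Acan, at 7.69, 1.08 and 10.9 CPM (2.83), were also higher than in Tgfbr2-cKO, although Tnc stayed below Ctrl. The protease gene Adam12, at 1888, 3964 and 1720 CPM (-1.07), and Timp3, a metalloprotease inhibitor gene, at 61.0, 138 and 102 CPM (-1.17), were lower. Within the Slc47a1-led nuclei 8 of 13 of these genes were past 2-fold higher and 0 lower, with a median of 1.22, and within the Dcdc2a-led nuclei 1 of 9 was past 2-fold higher and 3 lower, with a median of 0.12. The core response genes of the Slc47a1-led nuclei had a median of -0.01, and those of the Ptgds-led nuclei 0.02. Pmepa1 in the Slc47a1-led nuclei stood at 185, 138 and 201 CPM (0.42).

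The contractile and matrix genes of myofibroblasts did not differ past 2-fold in the fibroblast class, which leaves out the Bglap-led cluster. Of 8, 6 could be measured, 0 were past 2-fold in either direction, and the median was -0.32. Postn, a matricellular protein gene, stood at 41.2, 68.2 and 54.8 CPM (-0.73), and the smooth muscle actin gene Acta2 was close to the counting floor in all 3 libraries at 2.14, 1.94 and 1.79 CPM (0.14).

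Genes of leptomeningeal and arachnoid fibroblasts, the cells of the brain's inner coverings, were mostly lower under ADWA11 in the fibroblast class. This class leaves out cluster 10, which is led by members of the list (Trpm3, Slc6a20a and Ptgds). That cluster held 403 nuclei under ADWA11 and 396 in Tgfbr2-cKO. All 13 could be measured, 9 were past 2-fold lower and 1 past 2-fold higher, with a median of -1.23 (female -1.98, male -1.87). Slc6a13, a GABA transporter gene, stood at 6.21, 71.4 and 28.5 CPM (-3.52). Aldh1a2, which encodes a retinoic acid synthesis enzyme, stood at 18.4, 93.9 and 37.7 CPM (-2.35), and Ptgds, prostaglandin D synthase, at 82.2, 192 and 305 CPM (-1.23). The gene past 2-fold higher was Slc47a1, which encodes an organic cation exporter, at 688, 116 and 940.0 CPM (2.56). Within the Slc47a1-led sub-cluster 9 of these genes had a median of -0.68 with 3 past 2-fold lower, and within the Ptgds-led sub-cluster 12 had a median of -0.52 with 2 lower and 1 higher, both smaller than over the class. The sub-clusters also draw on nuclei of clusters 7 and 10, so they are not parts of the class alone. The median was larger than over the class within the Dcdc2a-led sub-cluster, at -1.58 with 7 of 10 past 2-fold lower and 1 higher, and within the Igha-led sub-cluster, at -2.11 with 4 of 5 lower and 1 higher. The Igha-led nuclei, as given above, had few UMIs and raised myeloid and endothelial markers.

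Basement membrane genes were lower in part, with 8 of 17 past 2-fold lower, 0 higher and a median of -0.42. Lama1, a laminin chain of the pial surface, stood at 30.1, 211 and 113 CPM (-2.81), Col4a6 at 19.2, 125 and 53.4 CPM (-2.70) and Lamc3 at 3.02, 27.4 and 14.2 CPM (-3.18). The list turned within sub-clusters, with a median of 0.36 and 0 of 14 past 2-fold lower in the Slc47a1-led nuclei and a median of 0.32 and 1 of 13 past 2-fold lower in the Ptgds-led nuclei. That 1 gene was Lama1, at 183, 633 and 207 CPM (-1.79).

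Fibroblast genes that support lymphocytes lay near the median of all genes as a list (11 of 12 measured, 1 past 2-fold lower, 0 higher, median 0.31). Cxcl12, a chemokine that holds lymphocytes, stood at 498, 831 and 198 CPM (-0.74), with both lesions above Ctrl, and in the Slc47a1-led nuclei at 496, 347 and 202 CPM (0.51), so its direction turned with the sub-cluster. The list there had a median of 0.55, with 4 of 10 past 2-fold higher and 1 lower. Over the class the adhesion gene Vcam1 stood at 76.4, 183 and 36.9 CPM (-1.26) and Icam1 at 93.96, 53.7 and 52.0 CPM (0.81). Of the pathway genes 21 of 22 were measured, 0 were past 2-fold lower and 3 higher, with Tgfb3, a ligand gene, at 39.1, 18.6 and 40.0 CPM (1.07). Itgb8 in fibroblasts stood at 151, 261 and 135 CPM (-0.79), with 0.15 in female and -1.10 in male nuclei.

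By the ranking rule the fibroblast genes most clearly higher under ADWA11 included Adamts17, a secreted metalloprotease, at 173, 11.2 and 207 CPM (3.95), Kcnj15, a potassium channel gene, at 108, 14.2 and 126 CPM (2.92) and Crispld1 at 500.3, 80.1 and 405 CPM (2.64). For these the Tgfbr2-cKO library stood apart from the other two. Those most clearly lower included Ebf3 at 25.7, 413 and 3.69 CPM (-4.00), Slc7a11, the cystine transporter gene, at 108, 1573 and 196 CPM (-3.87), the stem cell factor gene Kitl at 9.09, 123 and 16.8 CPM (-3.76) and Fst, which encodes the activin antagonist follistatin, at 3.72, 43.8 and 1.57 CPM (-3.56). Ebf3 also led the stromal sub-cluster that came nearly all from the Tgfbr2-cKO library. Hif3a was lower as well (7.30, 93.9 and 5.54 CPM), with ratios of -6.25 in female and -1.01 in male nuclei.

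**Figure D5:**
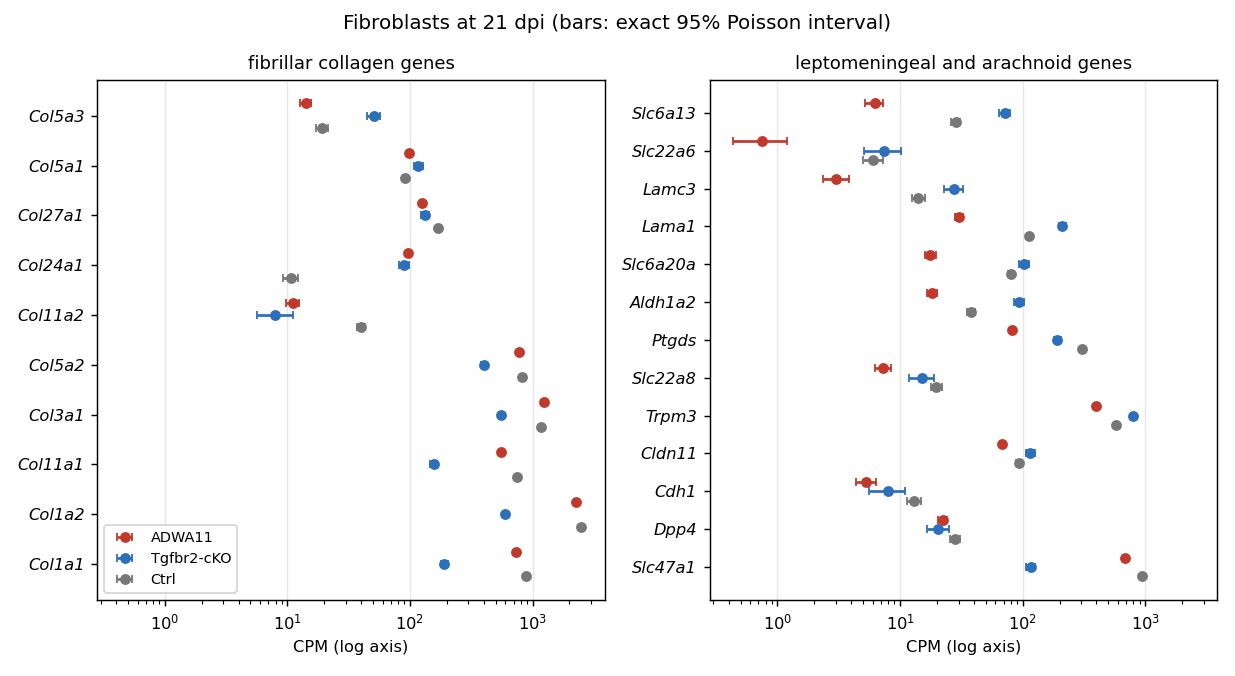
CPM (log axis) of fibrillar collagen genes and of leptomeningeal and arachnoid genes in fibroblasts at 21 dpi under ADWA11 (red), in Tgfbr2-cKO (blue) and in Ctrl (grey). Col1a1 lies at 738, 191 and 877 CPM and Slc6a13 at 6.21, 71.4 and 28.5 CPM, and Slc47a1, at 688, 116 and 940.0 CPM, is the leptomeningeal gene past 2-fold higher under ADWA11. Bars are exact 95% Poisson intervals.

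Endothelial nuclei had lower levels of blood-brain barrier genes under ADWA11. All 9 measured barrier genes were past 2-fold lower, with a median of -1.57 (female -1.58, male -1.33) and summed levels of 2457 CPM under ADWA11, 8780 CPM in Tgfbr2-cKO and 6022 CPM in Ctrl. The libraries stood in the same order by their neuron nuclei (1, 831 and 153). Whether tissue content took part in the barrier values was not tested. Slco1c1, the thyroid hormone transporter, stood at 74.9, 789 and 192 CPM (-3.40). The glucose transporter gene Slc2a1 stood at 159, 668 and 493 CPM (-2.07), and the tight junction gene Cldn5 at 221, 494 and 491 CPM (-1.16). Plvap, which forms the diaphragms of leaky vessels, was higher under ADWA11 at 214, 55.5 and 102 CPM (1.95 [1.41 to 2.53]). Of 5 measured activation genes 4 were past 2-fold higher, among them the leukocyte-capture gene Selp at 72.7, 23.3 and 66.1 CPM (1.64). The adhesion gene Vcam1 stood at 269.8, 129 and 366 CPM (1.07) in these nuclei, with Ctrl highest. The class rested on 310 nuclei under ADWA11 and 115 in Tgfbr2-cKO. Astrocyte markers summed to 189.8 CPM under ADWA11 (Aldh1l1 at 0) and 424 CPM in Tgfbr2-cKO in these nuclei, and fibroblast markers to 1495 and 195 CPM (Col6a3 at 0 in Tgfbr2-cKO), and their part in the result was not tested.

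Astrocytes had lower levels of homeostatic genes under ADWA11. Of 10 such genes 6 were past 2-fold lower and 0 higher, with a median of -1.33 (female -1.57, male -1.59). The glutamate transporter gene Slc1a2 stood at 1091, 4978 and 1626 CPM (-2.19), and Glul, which encodes glutamine synthetase, at 71.3, 471 and 164 CPM (-2.73). Aqp4, the water channel gene of astrocyte endfeet, lay on the other side at 1035, 600.3 and 828 CPM (0.79). For each of these 3 homeostatic genes the ADWA11 and Ctrl lesions lay closer to each other than either did to Tgfbr2-cKO, the library with the most neural tissue, and whether tissue content took part was not tested. Of 12 measured reactive genes 3 were past 2-fold higher and 0 lower, with a median of -0.04. C3, the complement gene, stood at 365, 63.6 and 273 CPM (2.52) and Lcn2 at 108, 49.2 and 290.3 CPM (1.13), while Gfap, the intermediate filament gene, stood at 720.3, 1005 and 707 CPM (-0.48). Neuron markers in these nuclei summed to 37.1 CPM under ADWA11 (Rbfox3 and Slc17a7 at 0), 113 CPM in Tgfbr2-cKO and 31.9 CPM in Ctrl.

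Mural cells held 75 nuclei under ADWA11 and 62 in Tgfbr2-cKO. Only 5 core response genes could be measured there, with a median log2 ratio of 0.58 (female 0.35, male 0.52). Pmepa1 in mural cells had 76 UMIs against 17, a log2 ratio of 1.80, the opposite side from myeloid nuclei and T cells. Ccn2, a matricellular protein gene, had 17 UMIs against 39 (-1.55), and Ldlrad4, Ski and Smurf2 lay at 0.63, 0.58 and -0.23. Single nuclei weighed heavily in these counts, with 1 nucleus holding 52.9% of the Ccn2 UMIs under ADWA11 and 1 holding 79.5% in Tgfbr2-cKO, and 31.6% and 35.3% for Pmepa1.

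The pair of conditions was also available at 7 dpi, in separate libraries. The median of the core TGFβ genes in myeloid nuclei was -1.28 at 7 dpi and -1.21 at 21 dpi, and that of the microglia genes -1.95 and -2.43. The MHC class II median in myeloid nuclei was 0.40 at 7 dpi and 3.09 at 21 dpi. The interferon gamma median there was -0.27 at 7 dpi and 0.88 at 21 dpi, the cytokine median -1.07 and 0.48, and the type I interferon median -2.65 and -0.06, so these lists did not keep their values between the times. In T cells the regulatory median was 1.11 and 1.85, while the type 17 and gamma-delta median was 0.61 at 7 dpi and -2.52 at 21 dpi, with 3 genes of each list measured at 7 dpi. The fibrillar collagen median in fibroblasts was 0.44 and 0.71, and the core median there -0.36 and -0.21. The core genes and the microglia genes thus lay on the same side at both times in myeloid nuclei, and the differences between times were not tested.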

How the data were processed

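Nuclei of dissected lesions were sorted on DAPI and sequenced with 10x 3′ chemistry. The authors deposited counts of UMIs per gene and barcode for each library, made with Cell Ranger against mm10 (version 7.1.0 in the submitters' processing notes, 7.2.0 per the file headers), and barcodes called as cells by that tool are all that was used. These counts were read as deposited, and samples were grouped by their titles.

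Nuclei with at least 1000 UMIs and under 5% mitochondrial UMIs were kept. Doublets were called per library by simulated nearest neighbours at 0.8% per 1000 barcodes and removed. All 6 libraries were clustered with Seurat 5.3.0 and sctransform 0.4.2 under R 4.3.3 (3000 variable genes, 30 components, resolution 0.5), and clusters were named from marker lists. A cluster with fewer than 3 detected markers or with leading genes of another type stayed unnamed. Sub-clusters were formed without the genes of the lists, and their markers were called raised against the other nuclei that were sub-clustered with them. UMIs were summed per class and library in Python 3.11.15 (numpy 2.4.6, scipy 1.17.1). Genes entered with at least 50 UMIs over the 2 libraries, and a gene at 0 in a library was set at a floor of 3 UMIs, its bound, also in list medians. Intervals are exact Poisson, Clopper-Pearson or conditional binomial intervals at 95%.

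With 1 library per condition no edgeR test between conditions was made, and edgeR 4.0.16 gave only the alternative scaling. The depth of a class sets its precision: a class held from 558671 UMIs (endothelial, Tgfbr2-cKO) to 31992726 UMIs (myeloid, ADWA11) among the 5 classes described most fully. The scripts were tested on simulated data. The members, gene lists and tests were chosen with earlier results of these data known, and some lists were taken over from an earlier analysis of the same files, so no list is independent support.

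Named genes were the list members and, per class, those past 2-fold with the same direction in both mice (at least 10 UMIs in each), a level in the class at least that of the other nuclei of the higher library, and no nucleus with over 10% of the UMIs, leaving out mitochondrial, sex-linked and predicted genes, ranked by the interval end nearest 0 (8 per direction in fibroblasts and myeloid nuclei, 5 in others). Genes in other sentences are list members. Alternatives were Leiden clustering, the study's percentile filter (the outer 2.5% of UMIs and genes and the highest 2.5% of mitochondrial share left out), doublets kept, each mouse alone, shares without neural classes, other scalings, minimums of 20 and 200 UMIs, and fits within sub-clusters. Left out were the other libraries except as reference levels. Values of some list members are not reported here, although the lists' counts and medians include them.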

Additional observations from a re-analysis of the deposited data

Results flagged for a closer look

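In 7 cases both mice lay on one side at 21 dpi and both on the other at 7 dpi, and the difference between the times was not tested. In 3 of them the log2 ratio was at least 0.5 in size at both times, and these come first. The median log2 ratio of proliferation genes in myeloid nuclei was -0.71 at 21 dpi (female -0.39, male -1.002) and 0.54 at 7 dpi (female 0.62, male 0.21). The log2 share ratio of oligodendrocyte precursors was -5.28 at 21 dpi (female -3.76, male -5.31, the ADWA11 male having 0 such nuclei) and 0.95 at 7 dpi (female 1.18, male 0.63). The log2 share ratio of cluster 10, led by Trpm3, Slc6a20a and Ptgds and left unnamed, was -0.90 at 21 dpi (female -0.17, male -1.41) and 3.73 at 7 dpi (female 3.98, male 3.18). The other 4 were smaller at one time or both. The interferon gamma median in myeloid nuclei was 0.88 at 21 dpi (female 0.68, male 0.72) and -0.27 at 7 dpi (female -0.36, male -0.44). In fibroblasts the myofibroblast median was -0.32 (female -0.32, male -0.38) and 0.46 (female 0.26, male 0.16). The basement membrane median over the 16 genes measured at both times was -0.36 (female -0.61, male -0.38) and 0.13 (female 0.12, male 0.25). In astrocytes the reactive median over 10 such genes was -0.14 (female -0.27, male -0.09) and 0.25 (female 0.18, male 0.07). Sub-clusters were not part of this count. The myeloid sub-cluster led by Neil3, Kif4 and Kif11 also turned in both mice. Its log2 share ratio was -1.335 at 21 dpi, on 14 nuclei under ADWA11 and 13 in Tgfbr2-cKO, and 0.79 at 7 dpi.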

How the results depend on the processing

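No paired analysis was possible because each group has 1 library. Among the results compared with 1 choice changed at a time, fits within sub-clusters apart, no value past 2-fold changed sign. Within the S100a8-led sub-cluster, which raised neutrophil markers, the myeloid core median, past 2-fold over the class, did change sign, as given above. With 2 changed, the T cell share ratio (1.13) was -0.04 in female nuclei without neural classes. Some smaller values changed sign with 1 choice: the mural share ratio (-0.65) was 0.05 in female nuclei, the fibroblast core median (-0.21) 0.07 with Leiden clustering, the astrocyte core median (-0.06) 0.06 with doublets kept, and the border macrophage median (0.31) -0.69 and -1.16 in the Clec10a-led and Apoc4-led sub-clusters. Of 90 counts 82, of 186 list medians 156, of 544 values of named genes 514 and of 80 shares 68 stayed within the limits set for them, and the cause of the other moves was not tested.

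Without neural classes the log2 share ratio was 0.78 for fibroblasts (1.49 over all nuclei), -0.19 for myeloid nuclei (0.52), 0.42 for T cells (1.13) and -0.20 for endothelial nuclei (0.51). With Leiden clustering it was 0.83 for fibroblasts. With doublets kept it was -5.85 for oligodendrocytes (-10.15) and -2.72 for precursors (-5.28). With 1 mouse at a time the endothelial ratio ran from 0.35 to 1.11, that of precursors from -5.31 to -3.76, that of the Fkbp5-led myeloid sub-cluster, whose -8.34 is a bound, from -6.87 to -5.96, and that of the Foxp3-led T cells from 1.57 to 3.04.

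The values with clusters 7 and 10 and those within or without sub-clusters were chosen after seeing the data. For list medians in fibroblasts, the TGFβ targets (0.37) were 1.06 with Leiden clustering, 0.90 by mean of CPM per nucleus, 1.31 with clusters 7 and 10 added, and 0.74 to 1.02 with 1 mouse. The fibrillar collagens (0.71) were 1.46, and the core response (-0.21) 0.08, with clusters 7 and 10. Basement membrane genes (-0.42) were -0.55 with Leiden clustering, -0.29 at a minimum of 200 UMIs and -0.56 to -0.39 with 1 mouse. Leptomeningeal genes (-1.23) were -2.29 with Leiden clustering, -1.57 by mean per nucleus, -2.38 with clusters 7 and 10 and -1.98 to -1.87 with 1 mouse.

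In myeloid nuclei, the microglia median (-2.43) was -1.28 within the Clec10a-led sub-cluster, and the MHC class II median (3.09) was 3.95 within the Apoc4-led sub-cluster. The interferon gamma median (0.88) was 0.48 and -0.30 in those sub-clusters. Lipid handling (0.66) was 0.35 and 1.04 there, 0.81 with trimmed-mean scaling and 0.62 to 0.79 with 1 mouse. In T cells the type 17 median (-2.52) was -3.22 to -2.93 with 1 mouse. The barrier median (-1.57) was -1.83 with doublets kept and -1.58 to -1.33 with 1 mouse. In astrocytes with 1 mouse the homeostatic median (-1.33) was -1.59 to -1.57 and the core median (-0.06) 0.15 to 0.23.

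At a minimum of 200 UMIs the percentages past 2-fold were 4.24 lower and 4.72 higher in fibroblasts, 6.51 lower in myeloid nuclei, 4.22 higher in endothelial nuclei and 3.11 higher in astrocytes. At 20 UMIs the endothelial percentage lower was 6.25, with doublets kept the endothelial percentage higher was 9.87, and with Leiden clustering the T cell percentage lower was 6.64. With 2 mice per library and 1 library per condition, no interval covers the spread between animals, dissections or libraries.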

Other observations

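Some genes outside the lists differed in several classes at once, and they were chosen after their values were seen. Fkbp5, a glucocorticoid-induced gene, was highest in the female mouse of the Tgfbr2-cKO library in every class measured. In myeloid nuclei it stood at 1485 CPM in that mouse and 226 CPM in the male of the same library, against 14.9 and 42.2 CPM under ADWA11 and 146 and 104 CPM in Ctrl (female and male). In astrocytes it stood at 488 and 129 CPM, 36.8 and 55.1 CPM, and 90.6 and 37.9 CPM in the same order, and in fibroblasts at 1291 and 355 CPM, 127 and 302 CPM, and 362 and 166 CPM. Hif3a followed in fibroblasts, at 200.3 and 18.0 CPM in Tgfbr2-cKO, 2.63 and 8.90 CPM under ADWA11, and 6.67 and 4.73 CPM in Ctrl. Zbtb16 in fibroblasts stood at 1201 and 532 CPM, 26.5 and 137 CPM, and 164 and 66.8 CPM.

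A pair of zinc finger genes of chromosome 4 had few UMIs in the Tgfbr2-cKO library. Zfp979 (chr4:147611937-147642513) had 495 UMIs in myeloid nuclei under ADWA11 and 1 in Tgfbr2-cKO, while in endothelial nuclei it stood at 47.2 and 32.7 CPM in ADWA11 nuclei and at 28.2 and 15.6 in Tgfbr2-cKO nuclei (female and male). In myeloid nuclei of Ctrl it differed between the mice, at 2.17 CPM in the female and 18.1 CPM in the male. Zfp990 (chr4:145510759-145539188) had at most 7 UMIs in each of 6 classes of the Tgfbr2-cKO library. In endothelial, mural and astrocyte nuclei it had only 4, 0 and 4 UMIs under ADWA11 as well. It had 129 UMIs in T cells under ADWA11 and 0 in Tgfbr2-cKO, and in fibroblasts it stood at 15.8 and 19.1 CPM under ADWA11, 0 and 0.836 in Tgfbr2-cKO, and 1.33 and 14.0 CPM in Ctrl. These genes have near-identical relatives, and how reads were split among them is uncertain.

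H2-Ab1 transcript was higher under ADWA11 than in Tgfbr2-cKO also in classes other than myeloid nuclei. It stood at 46.4 CPM in fibroblasts of the ADWA11 lesion against 6.91 CPM in those of Tgfbr2-cKO. The endothelial levels were 80.8 and 3.58 CPM and the astrocyte levels 55.6 and 3.46 CPM in that order, and myeloid nuclei held 261 and 30.7 CPM. The T cell class held 116 and 72.9 CPM, so in Tgfbr2-cKO it lay above myeloid nuclei. In Ctrl T cells it stood at 335 CPM, with 666 in female and 90.3 in male nuclei. The part of free RNA in these values was not tested.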
